A study of Mus musculus with 2 samples.

Results

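The genes described here are 10 carriers that move amino acids, glycine among them, across the plasma membrane of mouse cells. They were chosen by name, as the rows of the gene tables whose identifiers the GENCODE mouse annotation gives to Slc6a9, Slc38a5, Slc38a2, Slc38a1, Slc43a1, Slc7a5, Slc3a2, Slc7a1, Slc7a11 and Slc1a5. All 10 were found among the 43346 rows of the gene tables that carry a mouse gene identifier, of which 21474 are protein-coding genes. The cells were G1E-ER4, an immortalized mouse erythroid line without a functional Gata1 gene of its own that carries GATA1 fused to the ligand-binding part of an estrogen receptor. Both libraries came from cells kept in 10 nM 17beta-estradiol for 30 h, which releases the fusion protein into the nucleus, and poly(A) RNA was sequenced from both ends. They are labelled biological replicates 1 and 2 of 1 group, with 73681318 and 56056404 expected counts. No untreated library was analysed here, so the values are levels in differentiating cells of 1 line and not responses to estradiol.

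Amino acid carriers supply growing cells with building blocks, and in red cell precursors glycine has a further use, because it is condensed with succinyl-CoA in the first step of heme synthesis. Some carriers are single proteins that follow the sodium gradient, whereas Slc7a5 and Slc7a11 are light chains that reach the membrane only when bound to the heavy chain Slc3a2 and that exchange one amino acid for another. In mice, loss of the glycine transporter Slc6a9 is known to impair hemoglobin synthesis.

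The identity of the cells was checked on marker lists. All 7 erythroid markers reached at least 1 TPM (the usual unit of transcript abundance, scaled for transcript length and library size) in both libraries, with sums of 1931 TPM in replicate 1 and 1738 TPM in replicate 2. No marker of 6 for myeloid cells reached that level in both libraries, and their sums were 0.330 and 11.01 TPM, with S100a8 at 0 in both. Of 5 megakaryocyte markers 3 reached it, with sums of 21.8 and 17.8 TPM. The 4 mast cell markers summed to 0.550 and 0.730 TPM, with Cpa3, Mcpt8 and Fcer1a at 0, the 4 lymphoid markers to 0.480 and 0.380 TPM, and the 3 endothelial markers to 0 and 0.0300 TPM, with Cdh5 at 0. The part of other cells in the carrier levels was not tested.

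The coding starts printed here show where the coding sequences of the transcripts compared here begin, because Slc6a9, Slc38a5 and Slc3a2 each have transcripts that start differently. Each is the first 60 coding bases on build GRCm38 from the GENCODE M21 transcripts, with the start codon in capitals. The Slc6a9 sequence is shared by the transcripts ENSMUST00000030269 and ENSMUST00000063857, whose start codon is at position 117843106 on the plus strand of chromosome 4. ENSMUST00000163288 begins at an internal exon of the same gene and its start codon is at position 117849380. For Slc38a5, on the plus strand of chromosome X, ENSMUST00000033512 has its start codon at 8271483, while ENSMUST00000115590 and ENSMUST00000127103 share one at 8271888. The shared Slc38a5 sequence also lies within ENSMUST00000033512. For Slc3a2, on the minus strand of chromosome 19, ENSMUST00000010239 has its start codon at 8713747 and ENSMUST00000170157 at 8723095.
Slc6a9 ENSMUST00000030269 and ENSMUST00000063857: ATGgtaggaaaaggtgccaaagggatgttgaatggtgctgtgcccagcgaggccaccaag
Slc6a9 ENSMUST00000163288: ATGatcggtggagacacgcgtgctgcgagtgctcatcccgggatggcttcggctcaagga
Slc38a5 ENSMUST00000033512: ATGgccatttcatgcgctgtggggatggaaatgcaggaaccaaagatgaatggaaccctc
Slc38a5 ENSMUST00000115590 and ENSMUST00000127103: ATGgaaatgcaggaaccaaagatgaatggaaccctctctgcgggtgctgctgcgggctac
Slc3a2 ENSMUST00000010239: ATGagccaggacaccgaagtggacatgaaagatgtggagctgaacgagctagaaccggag
Slc3a2 ENSMUST00000170157: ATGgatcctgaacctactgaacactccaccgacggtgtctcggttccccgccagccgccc

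Of the 10 carriers, 7 reached at least 1 TPM in both libraries and 3 stayed below it in both, while 35.3% of protein-coding genes reached it. The 10 levels summed to 237 TPM in replicate 1 and 199.8 TPM in replicate 2, or 0.0237% and 0.0200% of all TPM. Their median mean level was 10.4 TPM, against 0.0150 TPM over all protein-coding genes and 15.4 TPM over the 7570 that reached 1 TPM in both libraries. Among the 7 expressed carriers the highest mean level was 9.76-fold the lowest. The 3 carriers below 1 TPM were Slc38a1, Slc43a1 and Slc7a11.

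**Figure D1:**
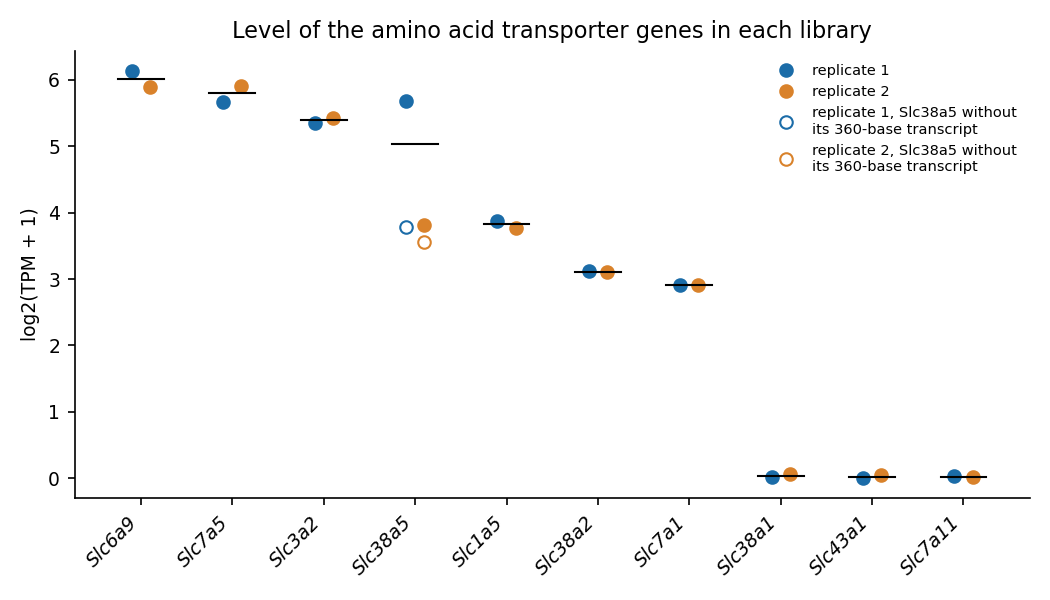
Level of each of the 10 carriers as log2(TPM + 1), with 1 filled point for each library and a line for the mean TPM of both, and open points for Slc38a5 without its 360-base transcript. The filled points of Slc38a5 lie far apart, at 50.4 and 13.0 TPM, its open points lie close at 12.7 and 10.8 TPM, and Slc38a1, Slc43a1 and Slc7a11 lie at 0.04 TPM or less.

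The glycine transporter Slc6a9 (ENSMUSG00000028542.13, chr4:117834506-117875198, plus strand) couples the uptake of glycine to sodium and chloride. Its level was 69.2 TPM in replicate 1 (16815 counts) and 58.6 TPM in replicate 2 (10818 counts). The mean was 63.9 ± 7.47 TPM (SD, n = 2), the highest of the 10 and above 93.0% of protein-coding genes. In replicate 1 Slc6a9 was the highest carrier of the set, while in replicate 2 Slc7a5 was slightly higher. Exons of Slc6a9 overlap those of Gm17114, Ccdc24 and B4galt2 on the opposite strand, and none of these had more than 4 counts in either library. The sources used here do not say whether counting used the strand, so reads of these genes and Slc6a9 cannot be told apart by it.

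Almost all of the Slc6a9 signal lay on a pair of transcripts that share the start codon and have 1899 coding bases each. ENSMUST00000030269, of 3479 bases, held 82.1% of the gene's TPM in replicate 1 and 76.4% in replicate 2. ENSMUST00000063857, of 3146 bases, whose first base lies upstream at 117834506 and not at 117835051, held 17.4% and 23.4%. The same leader in both libraries, and a largest change in share of 5.96 percentage points, set Slc6a9 close to the median change of 5.41 points over 5714 expressed protein-coding genes with more than 1 transcript. Transcripts that begin at the internal exon were near 0: ENSMUST00000163288, whose coding start is shown above and which has 1911 coding bases, had 0 counts in both libraries. ENSMUST00000132043 had 2.28 and 0 counts and ENSMUST00000169990 had 0 and 2.12 counts. A count of 0 allows up to 3 counts, which is 0.0407 CPM (counts scaled by library total) in replicate 1 and 0.0535 CPM in replicate 2.

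Within the plasma membrane, the related neuronal glycine transporter Slc6a5 had 0 counts in both libraries, so no ratio to it was tested. Slc25a38, the carrier known for bringing glycine into mitochondria for heme synthesis, stood at 137 TPM in replicate 1 (9197 counts) and 102 TPM in replicate 2 (5296 counts). The log2 ratio of Slc6a9 to Slc25a38, taken on TPM + 1 within each library, was -0.98 in replicate 1 and -0.79 in replicate 2. Slc6a9 was thus below Slc25a38 in both libraries, with a mean log2 ratio of -0.88 ± 0.13 (SD, n = 2), or 0.542-fold. The ratio differed from 1 (limma, SE 0.336, adjusted p = 0.00998 over 8003 genes). At that threshold 89.7% of the 8003 genes differed from Slc25a38, so a difference from it is the common case. In the limma fit to a common partner the deviation of that partner is shared by all genes, so the genes are not independent of each other in it. The fit still had 8003 degrees of freedom for this pair, a number set by genes and not by the 2 libraries. Very small p-values from it therefore overstate the certainty that 2 libraries can give. A further limma fit, added later, moderated the spread of each gene toward a trend over all genes. It combined the 2 genes of a pair as independent, without the pairing within libraries, and had 5.34 degrees of freedom here. Its adjusted p was 0.00483, and results given with each gene's own spread come from that fit.

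Slc38a5 (ENSMUSG00000031170.10, chrX:8271133-8280179, plus strand) is a sodium-coupled carrier of glutamine, histidine, serine and glycine. It was listed at 50.4 TPM in replicate 1 and 13.0 TPM in replicate 2, with a mean of 31.7 ± 26.5 TPM (SD, n = 2). The libraries thus stood 3.88-fold apart in TPM, the widest gap among the 7 expressed carriers. The same gene had 2206 counts in replicate 1 and 1072 in replicate 2, a 1.49-fold difference after scaling for library size. The effective length that divides the counts was 587 bases in replicate 1 and 1441 bases in replicate 2. The log2 fold change between libraries was 1.31 larger in TPM than in counts, a gap wider than in 99.96% of 7570 expressed protein-coding genes. Only 9 of those genes, or 0.119%, had a gap past 2-fold, and the largest among the other expressed carriers was 0.025.

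The difference lay on one annotated transcript. ENSMUST00000127103, of 360 bases in 5 exons, spans chrX:8271133-8272933 and ends well before the end of the gene at 8280179. It held 74.8% of the gene's TPM in replicate 1 and 17.3% in replicate 2, at 37.7 and 2.24 TPM. It was assigned 577 expected counts in replicate 1 and 24.2 in replicate 2, or 26.1% and 2.25% of the gene's counts. Its coding start also lies within ENSMUST00000033512, so the split of counts between these transcripts is an estimate. Whether that split is right was not tested. The transcript of 1868 bases with 1437 coding bases, ENSMUST00000033512, held 23.1% of TPM in replicate 1 and 78.1% in replicate 2. On its own level it differed little, with 11.7 and 10.2 TPM from 1488 and 985 counts. ENSMUST00000115590, of 1983 bases, held 2.05% and 4.67%, at 1.04 and 0.610 TPM.

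**Figure D2:**
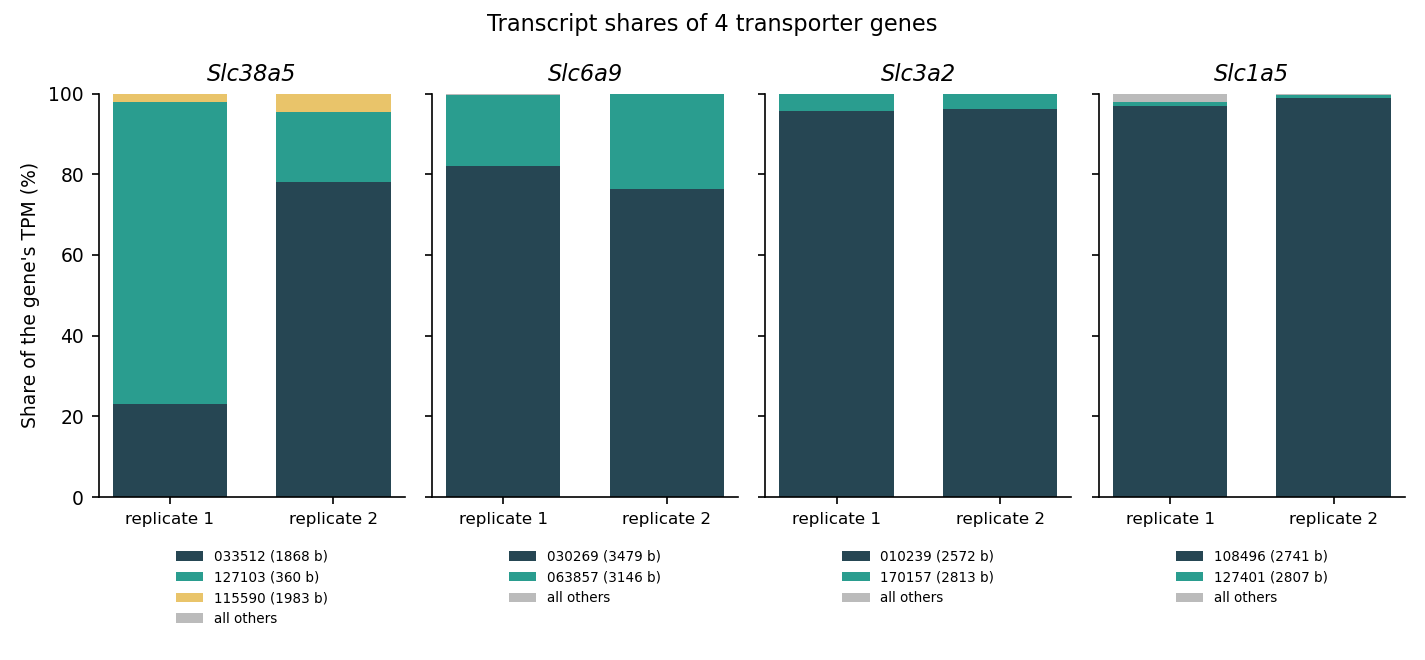
Share of the gene's TPM held by each transcript, in percent, for Slc38a5, Slc6a9, Slc3a2 and Slc1a5, with 1 stacked bar for each library and transcripts named by the last digits of their identifier with their length in bases. Slc38a5 changes its leader, with 74.8% on the 360-base transcript in replicate 1 and 78.1% on the transcript of 1868 bases in replicate 2, while the other 3 genes keep theirs.

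Without the 360-base transcript Slc38a5 stood at 12.7 TPM in replicate 1 and 10.8 TPM in replicate 2, a 1.18-fold difference, with a mean of 11.7 ± 1.37 TPM (SD, n = 2). This setting was added after the values were seen. The change of 57.6 percentage points in transcript share was larger than in 99.5% of 5714 genes. Slc38a5 was the 1 carrier of 6 whose leading transcript differed between libraries, where 11% of the 5714 genes had a different leader. By share of counts in place of TPM, ENSMUST00000033512 led in both libraries, with 67.5% and 91.9%. The level of Slc38a5 among the carriers therefore depends on whether the short transcript is counted, and both values are given where a result rests on it.

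Slc38a2 and Slc38a1 are the related sodium-coupled carriers of small neutral amino acids, including alanine, glycine and glutamine, known as system A. Slc38a2 (ENSMUSG00000022462.6, chr15:96687392-96699730, minus strand) lay at 7.66 TPM in replicate 1 (2552 counts) and 7.58 TPM in replicate 2 (1932 counts). The mean of 7.62 ± 0.0566 TPM (SD, n = 2) was above 76.7% of protein-coding genes, and the deposited tables hold 1 transcript of it, of 4626 bases. Slc38a1 (ENSMUSG00000023169.10, chr15:96571418-96642913, minus strand) had 4 counts in replicate 1 and 15 in replicate 2, or 0.01 and 0.04 TPM. The counts of Slc38a1 fell on different transcripts in each library, and at this depth neither its transcript use nor a difference between libraries can be read. Slc38a2 and Slc38a1, on the same strand of chromosome 15, thus stood far apart in level, with no overlap between their libraries.

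The log2 ratio of Slc38a2 to Slc38a5 was -2.57 in replicate 1 and -0.71 in replicate 2, with a mean of -1.64 ± 1.32 (SD, n = 2). The limma test did not pass (SE 1.65, adjusted p = 0.636), and at the same threshold 0.675% of 8003 genes differed from Slc38a5, since its own spread enters every ratio. With each gene's own spread, moderated as above, the limma adjusted p was 0.0243, on an SE of 0.442 in place of 1.65. Both SEs were set by the moderation, while the libraries stood as far apart as before. A limma fit to the same partner that moderated without a trend on mean level had an SE of 0.921 and an adjusted p of 0.148. Without the short Slc38a5 transcript the mean log2 ratio was -0.56, with a limma adjusted p of 0.00307, or 0.0351 with each gene's own spread. After adjustment for GC content, with all transcripts, the log2 ratio was -1.69 in replicate 1 and 0.19 in replicate 2, with a mean of -0.75 (limma adjusted p = 0.885). Slc38a2 was thus below Slc38a5 on average in each of these settings, but not in replicate 2 after that adjustment.

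Slc6a9 over Slc38a5 compares the glycine transporter with a carrier of the set that takes up glycine among other amino acids. The log2 ratio was 0.45 in replicate 1 and 2.09 in replicate 2, with a mean of 1.27 ± 1.16 (SD, n = 2). The limma test did not pass (SE 1.71, adjusted p = 0.740, or 0.0525 with each gene's own spread). Without the short Slc38a5 transcript the log2 ratio was 2.36 in replicate 1 and 2.34 in replicate 2. The mean of 2.35 then passed (limma adjusted p = 6.93e-30 on 8003 degrees of freedom, or 0.000127 with each gene's own spread on 5.36). After adjustment for GC content, with all transcripts, the log2 ratio was -0.04 in replicate 1 and 1.52 in replicate 2, with a mean of 0.74 (limma adjusted p = 0.888). Without that adjustment Slc6a9 was higher than Slc38a5 in both libraries, with and without the short transcript.

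Slc1a5 (ENSMUSG00000001918.13, chr7:16781340-16798274, plus strand) is a sodium-dependent exchanger of glutamine, alanine, serine and cysteine. It was measured at 13.7 TPM in replicate 1 (2591 counts) and 12.6 TPM in replicate 2 (1853 counts), with a mean of 13.2 ± 0.742 TPM (SD, n = 2). It stood above 81.1% of protein-coding genes, and ENSMUST00000108496, of 2741 bases, held 96.8% and 99.0% of it. The log2 ratio of Slc1a5 to Slc38a5 was -1.81 in replicate 1 and -0.04 in replicate 2, with a mean of -0.92 ± 1.25 (SD, n = 2), and did not pass (limma SE 1.66, adjusted p = 0.815, or 0.123 with each gene's own spread). Without the short Slc38a5 transcript the direction turned, with log2 ratios of 0.10 in replicate 1 and 0.21 in replicate 2. That mean of 0.16 did not pass either (limma adjusted p = 0.442, or 0.462 with each gene's own spread). No order between Slc1a5 and Slc38a5 was therefore established.

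Slc7a5 (ENSMUSG00000040010.10, chr8:121881150-121907694, minus strand) is the light chain that exchanges large neutral amino acids such as leucine. Levels were 50.01 TPM in replicate 1 and 59.2 TPM in replicate 2 (12498 and 11302 counts), with a mean of 54.6 ± 6.49 TPM (SD, n = 2). That was the second highest mean of the 10, above 92.1% of protein-coding genes. Its transcript ENSMUST00000045557, of 3517 bases, held 99.7% of the TPM in both libraries.

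The heavy chain Slc3a2 (ENSMUSG00000010095.9, chr19:8706882-8723369, minus strand) carries Slc7a5 and other light chains to the membrane. Slc3a2 measured 39.6 TPM in replicate 1 (7169 counts) and 42.2 TPM in replicate 2 (5815 counts), with a mean of 40.9 ± 1.81 TPM (SD, n = 2). Transcript ENSMUST00000010239, of 2572 bases and 1578 coding bases, held 95.8% and 96.2%. The remainder, 4.22% and 3.83% from 331 and 244 counts, was on ENSMUST00000170157, which has 1695 coding bases. The start of the shorter coding sequence, shown above, lies within the longer one.

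Slc7a5 was higher than Slc3a2 in both libraries, and their libraries did not overlap. The log2 ratio of Slc7a5 to Slc3a2 was 0.33 in replicate 1 and 0.48 in replicate 2, with a mean of 0.40 ± 0.11 (SD, n = 2). The limma test passed (SE 0.118, adjusted p = 0.0176), as it did for 90.6% of 8003 genes set against Slc3a2. With each gene's own spread the limma adjusted p was 0.0635, and after a fit of GC content the mean log2 ratio was 0.16 with a limma adjusted p of 0.259. The mean GC content over transcripts was 56.7% for Slc7a5 and 55.3% for Slc3a2. The higher level of the light chain thus passed in the first of these fits and not in the others.

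Slc43a1 (ENSMUSG00000027075.12, chr2:84838850-84863594, plus strand) is a carrier of large neutral amino acids that works without exchange or sodium. It had 0 counts in replicate 1 and 5 in replicate 2, or 0 and 0.0300 TPM. Slc7a11 (ENSMUSG00000027737.6, chr3:49892526-50443614, minus strand) is the light chain that imports cystine in exchange for glutamate and also needs Slc3a2. It had 4 counts in each library, or 0.02 and 0.01 TPM. In replicate 1 these lay on ENSMUST00000193838, annotated as a retained intron, and in replicate 2 on the coding transcript ENSMUST00000029297. Slc43a1 and Slc7a11 were thus at or close to the floor of 3 counts, and at a minimum of 1 TPM no ratio to Slc7a5 or Slc3a2 was tested for them.

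Slc7a1 (ENSMUSG00000041313.10, chr5:148327410-148399904, minus strand) is the carrier of the cationic amino acids arginine and lysine. Its level was nearly equal in both, 6.55 TPM in replicate 1 (3429 counts) and 6.54 TPM in replicate 2 (2623 counts), all on ENSMUST00000048116 of 7179 bases. This was the lowest level of the 7 expressed carriers, above 75.6% of protein-coding genes. The log2 ratio of Slc7a1 to Slc7a5 was -2.76 in replicate 1 and -3.00 in replicate 2, with a mean of -2.88 ± 0.17 (SD, n = 2), or 0.136-fold. The limma test passed (SE 0.250, adjusted p = 6.11e-30 on 8003 degrees of freedom, or 2.78e-05 with each gene's own spread). At that threshold 90.8% of 8003 genes differed from Slc7a5.

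**Figure D3:**
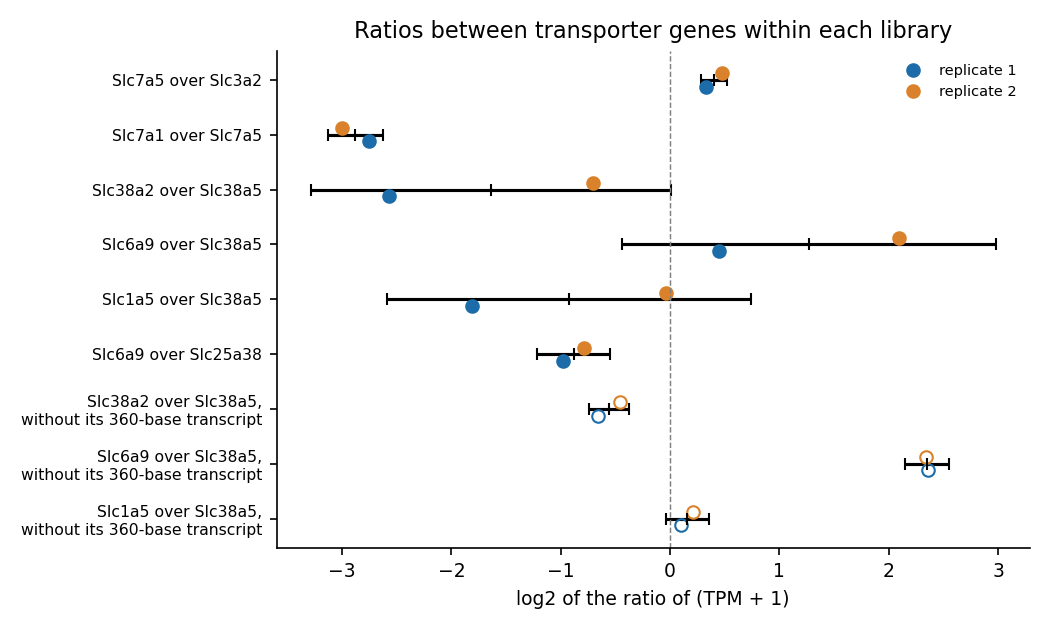
Log2 of the ratio of (TPM + 1) of the first gene to the second, with 1 point for each library, and bars for the mean and its limma standard error; the last 3 rows, with open points, leave out the 360-base transcript of Slc38a5. Slc7a1 over Slc7a5 lies near -2.88 and Slc7a5 over Slc3a2 near 0.40, and the points of the pairs with Slc38a5 lie far apart with that transcript and close together without it.

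Of 12 pairs of carriers, 6 were tested at a minimum of 1 TPM in both libraries and 6 were not, because 1 gene of the pair was below it. With no minimum, 5 more could be fitted. Each set a gene near the floor against an expressed one, so that all 5 passed in limma adds nothing to the levels. The share of all genes that pass without a minimum was not computed. The mean log2 ratio was then -5.37 for Slc7a11 over Slc3a2, -5.77 for Slc7a11 over Slc7a5, -5.77 for Slc43a1 over Slc7a5, -4.71 for Slc38a1 over Slc38a5 and 3.07 for Slc38a2 over Slc38a1. The size of these ratios depends on the pseudocount of 1 TPM, because the lower gene had at most 15 counts in a library. At the minimum of 1 TPM the limma test passed for 3 of the 6 pairs. With each gene's own spread it also passed for 3, but Slc38a2 over Slc38a5 took the place of Slc7a5 over Slc3a2. Slc7a1 over Slc7a5 and Slc6a9 over Slc25a38 passed in both.

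In the order of mean levels, Slc6a9, Slc7a5, Slc3a2, Slc38a5, Slc1a5, Slc38a2, Slc7a1, Slc38a1, Slc43a1 and Slc7a11, some neighbours could not be ranked. Slc6a9 and Slc7a5 changed places between libraries, as did Slc3a2 and Slc38a5. Slc38a5 was above Slc1a5 in each library, but the values of the libraries overlapped. The steps at which neighbours did not overlap were Slc7a5 over Slc3a2, Slc1a5 over Slc38a2, Slc38a2 over Slc7a1 and Slc7a1 over Slc38a1. With the short Slc38a5 transcript left out, Slc38a5 would lie next to Slc1a5 at 11.7 TPM, against 13.2 TPM for Slc1a5.

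Between the libraries, after scaling of counts by TMM, 7 carriers had the 20 summed counts needed and 0 of them differed by more than 1.5-fold, where 15.8% of 10445 genes did. Of those genes 10.7% were higher in replicate 1 and 5.16% higher in replicate 2. There was 1 library on each side, so no test was made, and the intervals cover counting error only. Slc38a5 was closest to the limit, with a log2 difference of replicate 1 over replicate 2 of 0.58 (95% interval 0.47 to 0.68), and passed it at 0.65 by library totals, at 0.59 with at least 100 summed counts and at 0.59 with no minimum beyond 1 count in each library. Without its short transcript the log2 difference of Slc38a5 was 0.17. Slc6a9 differed by 0.17 (0.14 to 0.21). Slc7a5 differed by -0.32 (-0.36 to -0.28) and Slc3a2 by -0.16 (-0.21 to -0.11), so both chains of the exchanger were lower in replicate 1. Slc1a5 at 0.02, Slc38a2 at -0.06 and Slc7a1 at -0.08 lay closest to 0. Transcript GC content and level moved together across the 7570 expressed protein-coding genes (Spearman rho 0.303, a description across genes that share 2 libraries), and a fit that adjusts the level for GC content was run for the 6 pairs. It moved Slc7a5 over Slc3a2 and the pairs of Slc38a5 with Slc38a2 and Slc6a9 as given above, and left the calls for Slc7a1 over Slc7a5 and Slc6a9 over Slc25a38.

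**Figure D4:**
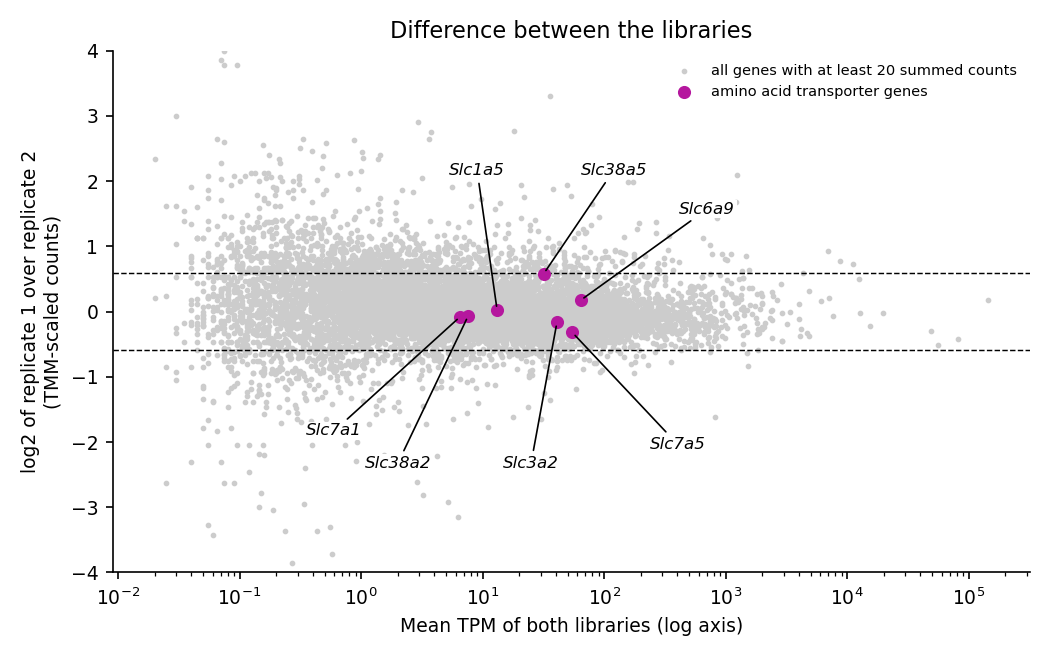
Log2 of replicate 1 over replicate 2 in TMM-scaled counts against mean TPM on a log axis, with 1 grey point for each gene with at least 20 summed counts, the 7 expressed carriers marked and dashed lines at 1.5-fold; 8 genes lie outside the plotted range and 1 gene under 0.01 TPM is left out. Slc38a5 lies at 0.58, just under the upper line, and the other 6 carriers lie between -0.32 and 0.17.

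RefSeq promoter windows of build GRCm38.p6, from 250 bases before to 50 after the annotated start, were matched for 7 of the 10 carriers, all but Slc38a1, Slc7a5 and Slc1a5. They were searched on both strands for letters of the GATA type (AGATAA or TGATAA, and with a final G in place of the last letter, AGATAG or TGATAG) and of the type bound by the amino acid stress factor ATF4 (TGATGNAA), both chosen after the values were seen. GATA-type letters were in the windows of 2 carriers, Slc38a5 and Slc7a11, where 29.8% of 32851 windows held them. In Slc38a5 the match, in capitals, was centred 17 bases after the start at chrX:8271385-8271410 on the plus strand.
Slc38a5 promoter: tgggggcgggAGATAGggactgaaag

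ATF4-type letters were in 1 of the 10 windows, that of Slc7a11, where 3.97% of the 32851 windows held them. The Slc7a11 window had 2 matches, in opposite orientation, that begin 66 and 47 bases before the start, shown in capitals at chr3:50443643-50443689 on the minus strand.
Slc7a11 promoter: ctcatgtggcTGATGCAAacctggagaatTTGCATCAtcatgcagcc

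Slc7a11, with this pair of matches, was at 4 counts in each library. Of 20 genes listed for the amino acid and integrated stress response, 17 were at 1 TPM or more in each library, against 35.3% of protein-coding genes. The list's median was 25.1 TPM. Chac1, Atf3 and Stc2 of the same list were near the floor, at mean levels of 0.065, 0.015 and 0.005 TPM. The highest were Ppp1r15a, a phosphatase subunit that reverses the stress signal, at 737 ± 1.41 TPM, the transcription factor Atf5 at 547 ± 12.5 TPM, the translation inhibitor Eif4ebp1 at 369 ± 35.6 TPM and the transcription factor Ddit3 at 151 ± 5.996 TPM (SD, n = 2 each). Trib3, at -0.64, was the 1 gene of 17 past 1.5-fold between libraries, against 15.8% of all genes tested. A match in a window is a description of letters and does not show binding.

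The 10 carriers described here and 47 others made a list of 57 genes, named as plasma membrane and lysosomal amino acid carriers. In this list Slc6a9, Slc7a5 and Slc3a2 ranked 2, 3 and 4 by mean TPM and Slc38a5 ranked 6. The highest was Slc38a10 at 114 ± 1.499 TPM, a relative of Slc38a5 and Slc38a2. Next among the others were Slc36a1, a proton-coupled carrier of small amino acids such as glycine, at 35.3 ± 5.71 TPM, Slc43a3 at 31.2 ± 4.12 TPM and Slc43a2, a relative of Slc43a1, at 27.2 ± 1.17 TPM (SD, n = 2 each). Slc43a3 is of the same family, but whether it carries amino acids was not tested, so its place in the list is by name only. Slc43a1 itself ranked 23 and Slc7a11 ranked 24. Of the 47 others, 12 reached 1 TPM in both libraries, against 35.3% of protein-coding genes. In both libraries 26 had 0 counts, and the list's median was 0 TPM. Of the 14 with enough counts, Ctns alone was past 1.5-fold, at 0.88, against 15.8% of all genes tested.

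**Figure D5:**
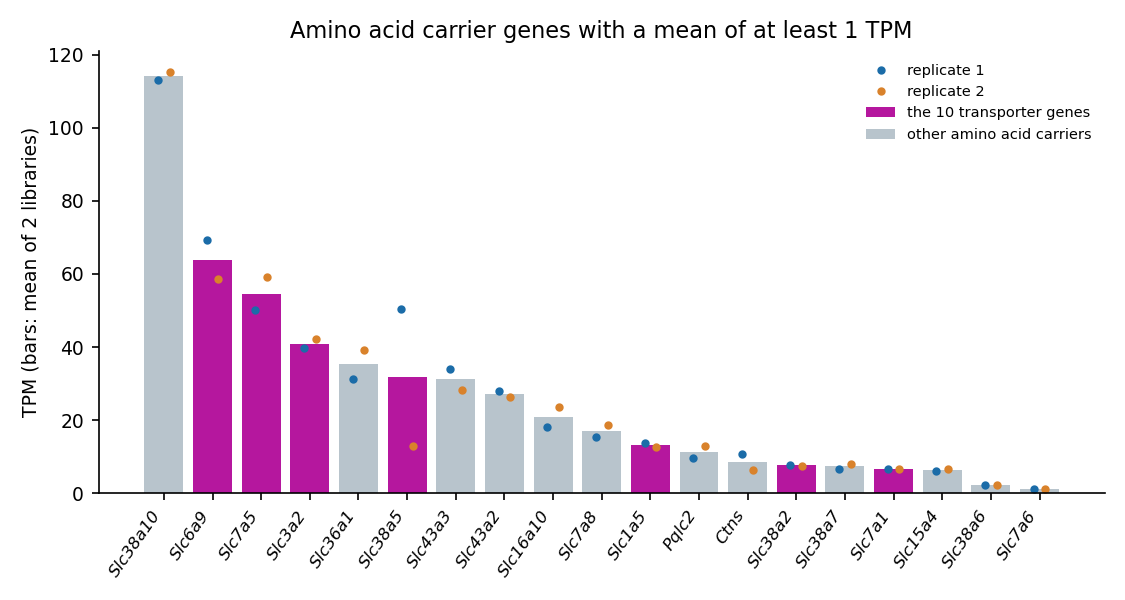
TPM of the 19 genes with a mean of at least 1 TPM in the list of plasma membrane and lysosomal amino acid carriers, highest first, with bars for the mean, points for the libraries and carriers described here in magenta. Slc38a10 leads at 114 TPM, followed by Slc6a9, Slc7a5 and Slc3a2, and the points of Slc38a5 lie farthest from its bar.

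On the mitochondrial side, 8 of 14 carriers of amino acids and glutathione were at 1 TPM or more in each library, against 35.3% of protein-coding genes. The list's median was 1.71 TPM. Slc25a39, known for importing glutathione, had 908.5 ± 33.9 TPM, Slc25a38 119 ± 24.8 TPM, Slc25a44, a carrier of branched-chain amino acids, 29.9 ± 1.27 TPM and the glutamate carrier Slc25a22 19.8 ± 1.01 TPM (SD, n = 2 each). Past 1.5-fold between libraries, against 15.8% of all genes tested, were 2 of 14, Slc25a13 at 0.67 and Slc25a29 at -0.62. Both were below 1 TPM, at mean levels of 0.445 and 0.735 TPM.

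Of 14 genes of glycine and serine metabolism, 7 were at 1 TPM or more in each library, against 35.3% of protein-coding genes. Some of the 14 use or make glycine, which Slc6a9 carries. The list's median was 1.24 TPM. The erythroid heme synthesis enzyme Alas2 had 325 ± 37.8 TPM and Shmt2, which makes glycine from serine in mitochondria, had 106 ± 26.3 TPM. Dld had 3.83 ± 1.56 TPM and Alas1, the housekeeping counterpart of Alas2, 2.30 ± 0.0849 TPM (SD, n = 2 each). Gldc and Amt, parts of the glycine cleavage system, and Gatm, which starts creatine synthesis, had 0 counts. Past 1.5-fold, against 15.8% of all genes tested, were 3 of 10, Dld at 0.79, Psat1 at 0.59 and Shmt1 at 0.62. Shmt1 was below 1 TPM, at a mean level of 0.66 TPM.

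For the substrates of Slc1a5, the Slc38 carriers and Slc7a11, 16 genes of glutamine, cysteine and glutathione metabolism were read. Of these 9 were at 1 TPM or more in each library, against 35.3% of protein-coding genes, and the list's median was 6.47 TPM. Gclm, the modifier subunit of the enzyme that begins glutathione synthesis, reached 1197 TPM in replicate 1 and 1809 TPM in replicate 2, and its partner Gclc averaged 29.8 ± 1.45 TPM (SD, n = 2). Glutamine synthetase, Glul, was at 58.4 TPM in replicate 1 but at 20.5 TPM in replicate 2. Its counts were 5640 and 2488, and their scaled log2 difference was 0.72, a smaller difference than in TPM. Cth, which makes cysteine from cystathionine, and Ggt1 had 0 counts, so with Slc7a11 at 4 counts a cystine importer and an enzyme of cysteine synthesis were both at or near the floor. Past 1.5-fold were 7 of 13, against 15.8% of all genes tested. Of the 7, 3 were higher in replicate 1 and 4 in replicate 2, against 10.7% and 5.16% of all genes. Gpt, Gls2, Cbs and Cdo1 among them were below 1 TPM, at mean levels of 0.46, 0.245, 0.16 and 0.12 TPM. The rest of the 7 were Gclm, Glul and Glud1.

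For the arginine that Slc7a1 carries, 5 of 13 genes of arginine and polyamine metabolism were at 1 TPM or more in each library. That is near the 35.3% of protein-coding genes that reached it, and the list's median was 0.625 TPM. Azin1, which keeps ornithine decarboxylase from being degraded, had 84.9 ± 10.9 TPM, the decarboxylase Odc1 itself 44.5 ± 11.8 TPM, Asl, which makes arginine, 25.4 ± 1.89 TPM and spermidine synthase Srm 17.4 ± 2.27 TPM (SD, n = 2 each). Arg1, Arg2 and Nos2, which consume arginine, had 0 counts. Of 8 genes with enough counts Nos3 alone was past 1.5-fold, at -0.69, against 15.8% of all genes tested. Its mean level was 0.1 TPM, from 24 counts in replicate 1 and 28 in replicate 2.

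Most genes listed for the sensing of amino acids by the growth kinase complex mTORC1 were detected. Leucine brought in by Slc7a5 is one input to that complex. Of the 28 genes listed 23 were at 1 TPM or more in each library, against 35.3% of protein-coding genes, and the list's median was 7.48 TPM. Lamtor1, the anchor of the lysosomal complex, had 138 ± 12.6 TPM, Nprl3 124 ± 4.44 TPM, the small GTPase Rraga 105 ± 0.417 TPM and Flcn 95.2 ± 15.5 TPM (SD, n = 2 each). Rragb, a close relative of Rraga, had 0 counts. Castor1, Castor2 and Sesn3 of the same list were near the floor, at mean levels of 0.055, 0 and 0.01 TPM. Of 24 genes with enough counts, Lamtor3 at 0.77 and Nprl2 at 0.70 were past 1.5-fold, against 15.8% of all genes tested. Nprl2 was below 1 TPM, at a mean level of 0.63 TPM.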

How the data were processed

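Poly(A) RNA of 2 libraries of 1 group was analysed. Per the deposited description files, values refer to build mm10 and GENCODE M4; no aligner or quantifier is named in the sources used here. The authors deposited expected counts, TPM, FPKM and the percent of a gene's TPM on each transcript (IsoPct, with posterior means), per the file headers. Totals were 73681318 and 56056404, so low levels are set by counting: intervals (95%) and the floor of 3 counts cover counting error only. Beside the 43346 gene rows there are 97 spike-in rows, with 0 counts in replicate 1. A further 26248 rows carry a number as identifier in place of a gene. Names and coordinates came from GENCODE M21 (42462 rows matched) and promoters from RefSeq.

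Log2 ratios of TPM + 1 were tested in limma 3.58.1 across 8003 genes that reached 1 TPM in each library, with Benjamini-Hochberg adjustment and a threshold of 0.05; folds on this scale understate low genes. Counts, rounded to whole numbers, were scaled by TMM (edgeR 4.0.16), at least 20 summed. Whether the cultures were separate is not stated in the labels, and p-values rest only on the spread between these libraries, pooled across genes. The members and lists were chosen with earlier results of these data known. Named were every member and pair gene. From each list the 4 highest in mean TPM were named, and the genes at 0 counts where at most 6. Other list genes, past 1.5-fold or near the floor, were named after their values were seen. The values of 1 gene that this rule names are not reported here.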

Additional observations from a re-analysis of the deposited data

How the results depend on the processing

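Leaving out the 360-base Slc38a5 transcript, a setting added after the values were seen, moved the pairs with Slc38a5: the mean log2 ratio was -0.56 for Slc38a2 (limma adjusted p = 0.00307), 2.35 for Slc6a9 (6.93e-30) and 0.16 for Slc1a5, where the direction turned (0.442). The same with each gene's spread moderated on its own, also added later, gave limma adjusted p = 0.0351, 0.000127 and 0.462. That spread alone, with all transcripts, gave 0.0243 for Slc38a2 over Slc38a5 at -1.64 and 0.0635 for Slc7a5 over Slc3a2 at 0.40. Adjusting for GC content left Slc7a5 over Slc3a2 at 0.16 (0.259), and gave -0.75 (0.885) for Slc38a2 over Slc38a5 and 0.74 (0.888) for Slc6a9 over Slc38a5, each with its direction turned in 1 library. Calls for Slc7a1 over Slc7a5 and Slc6a9 over Slc25a38 passed in every fit run on both libraries. Single libraries gave values with no test, from 0.33 to 0.48 for Slc7a5 over Slc3a2, -3.00 to -2.76 for Slc7a1 over Slc7a5, -2.57 to -0.71 for Slc38a2 over Slc38a5, 0.45 to 2.09 for Slc6a9 over Slc38a5, -1.81 to -0.04 for Slc1a5 over Slc38a5 and -0.98 to -0.79 for Slc6a9 over Slc25a38. The members past 1.5-fold numbered 1 by library totals (17.2% of all genes), 1 with at least 100 summed counts (11.4%) and 2 (Slc38a5 and Slc38a1) with no minimum beyond 1 count in each library (22.4%); at a fold of 2, 4.81% of genes passed in place of 15.8%. At a minimum of 5 TPM, 2 genes of glycine and serine metabolism and 14 of mTORC1 sensing were counted. No paired analysis was possible because both libraries belong to 1 group. Depth limits Slc38a1, Slc43a1 and Slc7a11, each under 20 summed counts.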
